A study of Homo sapiens with 2 samples.

Results

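The genes described here are 7 members of the aldo-keto reductase superfamily: AKR1A1, AKR1B1, AKR1B10, AKR1C1, AKR1C2, AKR1C3 and AKR7A2. They were taken by symbol from the 24462 gene symbols of the count tables. Because the group was chosen by count differences already seen between these same libraries, its values below are a description and not a test. MDA-MB-231 is an established human triple negative breast cancer cell line, and RT-R-MDA-MB-231 is a radiotherapy-resistant line derived from it by repeated X-ray doses of 2 Gy up to 50 Gy. Both lines grew in the same serum-containing medium, and no other agent or allele is named for either. One library of total RNA was made per line with a 3' tag kit, so most reads start near the poly(A) tail of a transcript. Whether the RT-R cells are 1 clone or a mixed population was not stated in the labels.

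Aldo-keto reductases are mostly cytosolic enzymes that use NADPH to reduce aldehydes and ketones to alcohols. AKR1A1 and AKR1B1, the aldehyde and aldose reductases, act on sugars and reactive aldehydes, the AKR1C enzymes act on ketosteroids and prostaglandins, and AKR7A2 acts on succinic semialdehyde and aflatoxin aldehydes. Several members, AKR1B10 and the AKR1C genes among them, are known targets of NRF2, the transcription factor of the oxidative and electrophile stress response.

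The parental library held 9255008 counts and the RT-R library 10014804. All ratios are RT-R to parental after scaling by the trimmed mean of M-values, and the ranges in brackets are 95% intervals for counting error alone. With 1 library per line, the spread between replicates is unknown and no test between the lines was possible. PCR copies of a read are not independent molecules, so the intervals are the least error these values carry. Genes reaching 20 counts in either library were taken as measured. They were called higher or lower when the change was 2-fold or more and its interval excluded 1. Of 12644 measured genes, 871 were called higher (6.89%) and 502 lower (3.97%). The median absolute log2 ratio was 0.34. The line was checked by its markers. ESR1 had 0 and 1 counts in the parental and RT-R library, PGR 0 and 0, and ERBB2 230 and 174. VIM, CD44, AXL, CAV1, MSN, KRT18 and KRT19 each had over 2000 counts in both. The rest of the listed breast cancer line markers were lower, with KRT8 at 590 and 578 counts and EPCAM at 15 and 26.

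The AKR1C genes were the members that rose in the RT-R library. AKR1C3 went from 22 to 140 counts, AKR1C1 from 4 to 29 and AKR1C2 from 2 to 29. AKR1A1, AKR1B1 and AKR7A2, which were more abundant than the AKR1C genes in both libraries, stayed within 2-fold, and AKR1B10 had no count in either. Of the 7 members, 6 were measured, 3 of these were called higher and 0 lower. AKR1C1 and AKR1C2 passed the count minimum only through the RT-R library, so they could be measured only if they were higher there. The 3 AKR1C genes were among the 2529 measured genes of lowest mean level, of which 22.1% were called higher and 9.17% lower, against 6.89% and 3.97% over all measured genes. In bulk RNA, more cells that express a gene and more of its RNA per cell cannot be told apart.

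**Figure D1:**
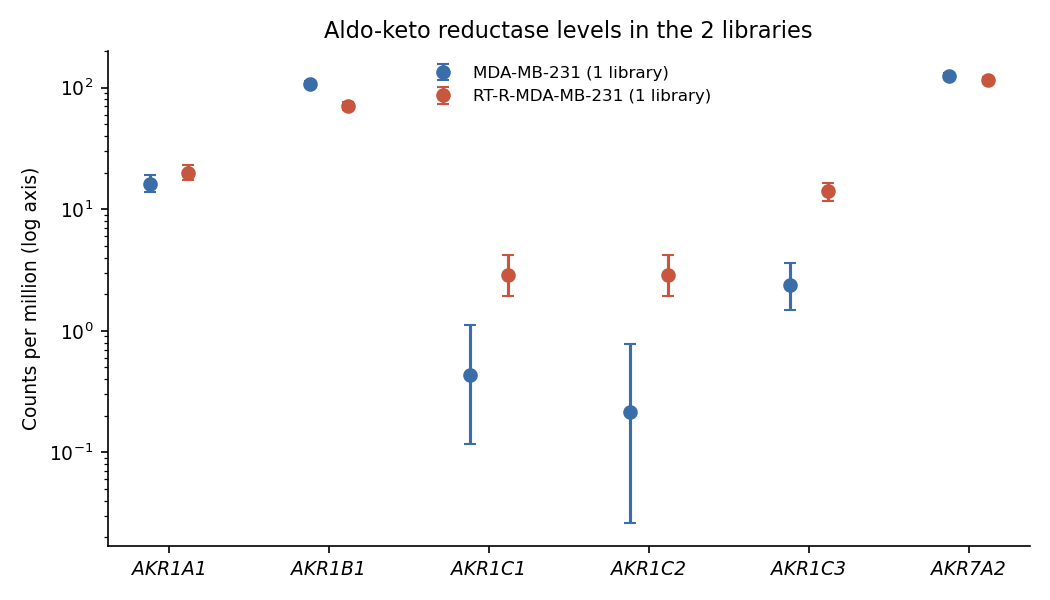
Level of each detected member in CPM, counts per 1000000 library counts (log axis), in the parental (blue) and RT-R (red) library, with exact 95% intervals for counting error and 1 library per line. The AKR1C genes sit higher in RT-R, with intervals that do not overlap, while AKR1B1 sits lower and AKR1A1 and AKR7A2 have overlapping intervals; AKR1B10, with 0 counts in both, is not drawn.

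The AKR1C genes lie side by side on chromosome 10 and are close copies, so their sequences decide how far their counts can be told apart. Each gene was represented by its longest principal transcript in GENCODE release 29, among those with a consensus coding sequence (CCDS). Where a gene's other transcripts end was not examined. In the chosen transcripts each AKR1C gene has a coding sequence of 972 bases. AKR1C1 and AKR1C2 were identical at 953 of these bases (98.0%), AKR1C1 and AKR1C3 at 889 (91.5%) and AKR1C2 and AKR1C3 at 885 (91.0%). The last 60 coding bases, stop codon included, are shown as the part of the protein-coding sequence nearest to the sequenced end. In these transcripts the annotated end lies 5541 bases after the stop codon in AKR1C1, 2596 in AKR1C2 and 183 in AKR1C3. Capitals mark the 9 positions where the copies differ.
AKR1C1: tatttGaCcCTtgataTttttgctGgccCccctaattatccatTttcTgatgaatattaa
AKR1C2: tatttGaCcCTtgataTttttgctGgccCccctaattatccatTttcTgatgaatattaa
AKR1C3: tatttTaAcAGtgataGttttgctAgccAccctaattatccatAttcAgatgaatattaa
AKR1C1 and AKR1C2 were the same over all 60 bases, and each of the 9 differences set AKR1C3 apart.

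Towards the end of the transcript, where a 3' tag read starts, the copies differed in another way. Because the annotated ends lie at unlike distances from the stop codon, the last 300 bases are not matching regions of the copies. Over the last 300 bases of its principal transcript, AKR1C3 shared 0 of 251 stretches of 50 bases with any transcript of another gene. AKR1C2 shared 201 of its 251 (80.1%), all with AKR1C1. AKR1C1 shared 0 over its own last 300 bases, and 97 of 251 (38.6%) over the 300 bases just after its stop codon, all with AKR1C2. AKR1A1, AKR1B1, AKR1B10 and AKR7A2 shared 0 over their last 300 bases. Over 50 bases or more, sequence from the annotated end of AKR1C3 thus matched no other gene's transcript, whereas part of the AKR1C1 and AKR1C2 sequence matched both genes, and their separate counts are uncertain. How such reads were handled, their length and the gene models used for counting were not stated in the labels.

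**Figure D2:**
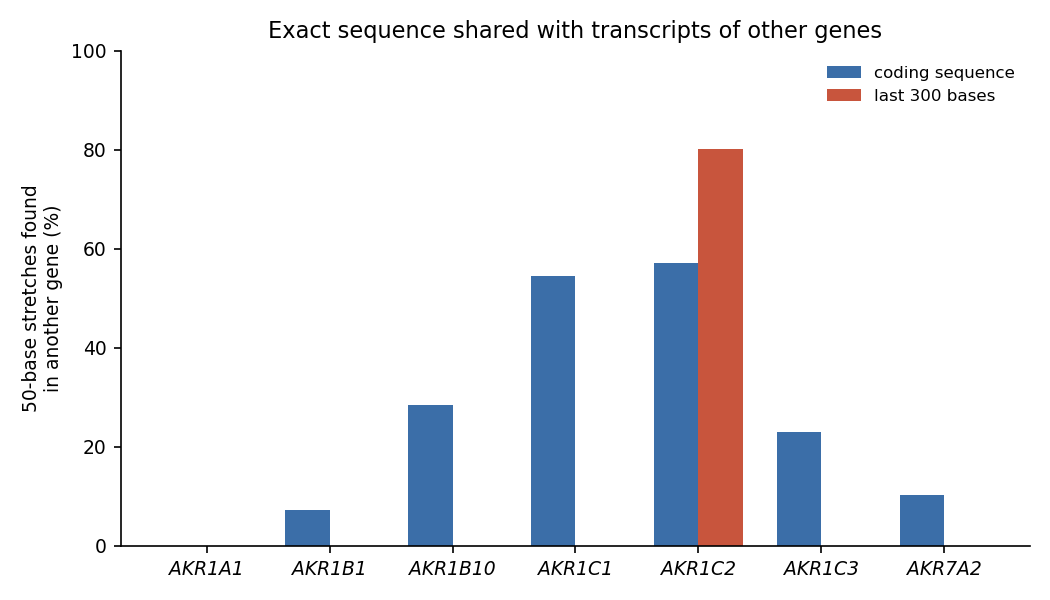
Share of all 50-base stretches in each member's principal transcript that occur exactly in a transcript of another gene (percent), for the coding sequence (blue) and the last 300 bases (red), from GENCODE release 29. AKR1C1 and AKR1C2 share 54.5% and 57.2% of their coding stretches, and AKR1C2 is the only member drawn with a shared last 300 bases, at 80.1%.

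AKR1C3 makes testosterone from androstenedione and also forms prostaglandins of the F series. Its level was 2.38 counts per 1000000 library counts (CPM) in the parental library (1.49 to 3.60) and 13.98 in the RT-R library (11.8 to 16.5), a ratio of 5.71 (3.62 to 9.40). Only 1.51% of measured genes had a higher log2 ratio than its 2.49. AKR1C1 inactivates progesterone. Its level was 0.432 CPM in the parental library (0.118 to 1.11) and 2.90 in RT-R (1.94 to 4.16), a ratio of 6.501 (2.28 to 25.5). AKR1C2 inactivates the androgen dihydrotestosterone. It had 0.216 CPM in the parental library (0.0262 to 0.781) and the same RT-R level as AKR1C1, 2.90 (1.94 to 4.16), a ratio of 13.0 (3.29 to 112). The wide interval of AKR1C2 comes with its 2 parental counts. With a pseudocount of 5 in place of 0.5, the log2 ratio was 2.19 for AKR1C2 in place of 3.42, 1.82 for AKR1C1 in place of 2.57 and 2.28 for AKR1C3, so the order of the copies by ratio depends on that setting.

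A sum over the 3 genes is the same however reads were divided among them, but not if reads matching several copies were dropped or counted for each. AKR1C1 and AKR1C2 had 29 RT-R counts each. The summed count went from 28 to 198, a ratio of 6.34 (4.26 to 9.79), and that of AKR1C1 and AKR1C2 alone from 6 to 58, a ratio of 8.67 (3.75 to 24.6). Adding AKR1C4 and the AKR1C pseudogenes in the tables changed the sum by 1 count. AKR1C3 made up 78.6% of the 28 parental counts (59.1% to 91.7%, exact Clopper-Pearson) and 70.7% of the 198 RT-R counts (63.8% to 76.9%). AKR1C2 made up 7.14% (0.877% to 23.5%) and 14.6% (10.0% to 20.4%). The ratio of AKR1C2 was 2.27 times that of AKR1C3, with an interval from 0.510 to 21.0, and that of AKR1C1 was 1.14 times that of AKR1C3 (0.349 to 4.89). Unequal changes among the 3 copies were therefore not detectable at this depth. Among the counts of all 7 members, the AKR1C genes took 1.21% in the parental library (0.806% to 1.75%) and 8.80% in RT-R (7.66% to 10.04%).

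**Figure D3:**
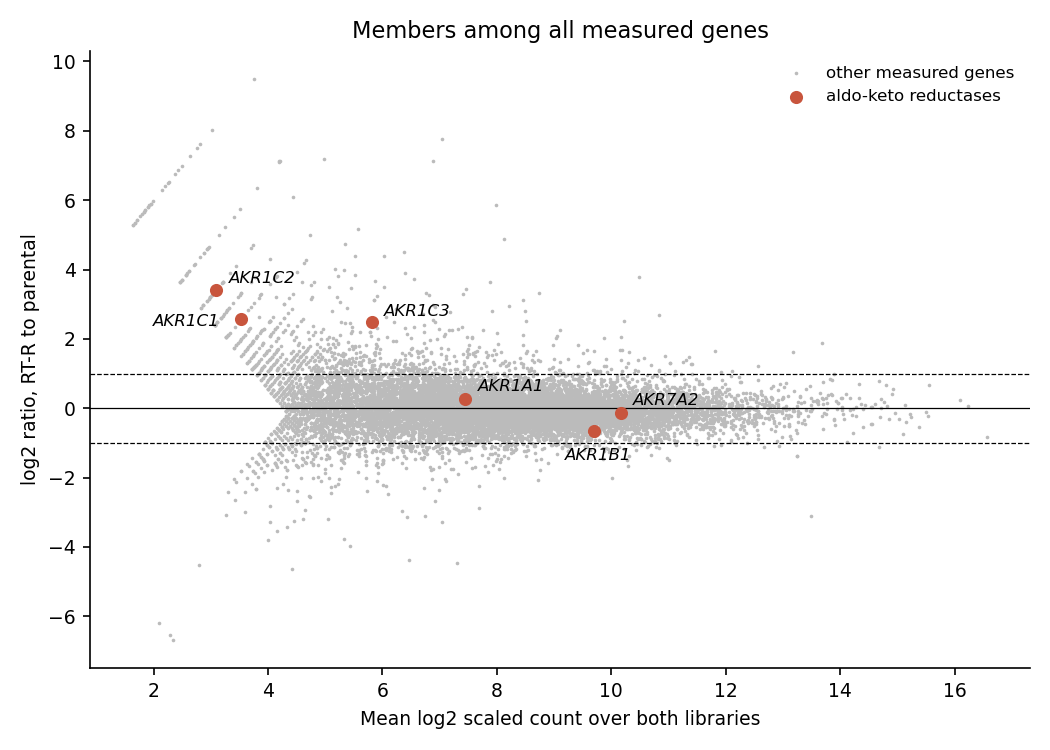
Each point is 1 of the 12644 measured genes, by mean log2 scaled count over both libraries and log2 ratio of RT-R to parental; dashed lines mark 2-fold and the measured members are in red. AKR1C1, AKR1C2 and AKR1C3 lie above the upper line at low mean level, and AKR1A1, AKR1B1 and AKR7A2 between the lines at higher mean level.

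Since the AKR1C genes moved together, their promoters were compared, with windows of 250 bases before to 50 after each transcript start from RefSeq (GRCh38.p14). Of the 7 members, 6 had a window. The AKR1C windows are printed to show how alike they are, with capitals marking the run ATTGGTTAACCA, which all of them hold and which was picked after the windows were seen.
AKR1C1 chr10:4963165-4963464, plus strand: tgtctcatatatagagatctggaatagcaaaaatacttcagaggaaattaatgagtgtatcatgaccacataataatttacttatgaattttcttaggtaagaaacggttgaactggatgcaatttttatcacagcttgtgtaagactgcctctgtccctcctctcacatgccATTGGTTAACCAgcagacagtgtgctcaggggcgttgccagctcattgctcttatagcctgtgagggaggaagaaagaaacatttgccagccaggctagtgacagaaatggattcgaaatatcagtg
AKR1C2 chr10:5003808-5004107, minus strand: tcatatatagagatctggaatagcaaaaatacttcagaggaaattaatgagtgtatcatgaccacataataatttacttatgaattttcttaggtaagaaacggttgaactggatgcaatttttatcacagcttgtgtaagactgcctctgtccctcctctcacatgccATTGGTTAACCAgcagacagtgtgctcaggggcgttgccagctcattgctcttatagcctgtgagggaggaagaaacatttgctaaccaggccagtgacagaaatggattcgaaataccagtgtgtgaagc
AKR1C3 upstream start chr10:5048531-5048830, plus strand: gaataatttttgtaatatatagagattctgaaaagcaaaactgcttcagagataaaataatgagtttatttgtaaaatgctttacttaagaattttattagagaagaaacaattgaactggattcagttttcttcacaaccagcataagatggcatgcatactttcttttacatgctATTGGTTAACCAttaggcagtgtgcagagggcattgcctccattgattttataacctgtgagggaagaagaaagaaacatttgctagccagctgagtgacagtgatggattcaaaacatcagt
AKR1C3 downstream start chr10:5094164-5094463, plus strand: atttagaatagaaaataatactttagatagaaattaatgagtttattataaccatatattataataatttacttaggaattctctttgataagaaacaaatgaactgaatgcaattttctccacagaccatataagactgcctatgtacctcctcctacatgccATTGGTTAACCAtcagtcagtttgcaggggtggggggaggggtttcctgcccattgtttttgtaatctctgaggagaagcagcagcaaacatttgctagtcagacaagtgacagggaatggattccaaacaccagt
The windows of AKR1C1 and AKR1C2 were identical at 288 of 296 aligned bases (97.3%), offset by 4 bases. The upstream AKR1C3 window matched AKR1C1 at 75.7% of aligned bases and the downstream one at 75.3%. Counting both strands, 5 of 35116 RefSeq windows of the same length held the capital run. They were the 4 windows shown and 1 of PPFIA2 on chromosome 12. The run began 77 bases before the start in AKR1C1, 81 in AKR1C2, and 73 and 86 in the upstream and downstream windows of AKR1C3, and its first 5 bases are a reversed CCAAT box, a motif held by 34.6% of all windows.

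Base composition separated the members' promoters. The AKR1C windows held 0 to 3 CpG dinucleotides and 33.7% to 41.3% GC, whereas those of AKR1A1, AKR1B1 and AKR7A2 held 18 to 39 CpG and 54.3% to 77.3% GC. The medians over all windows were 14 CpG and 58.7% GC, and 24.5% of all windows held 3 CpG or fewer. The core of the antioxidant response element bound by NRF2, TGACNNNGC on either strand, was in 13.3% of all windows. Neither the AKR1C windows nor those of AKR1A1 and AKR1B1 held it, while both overlapping windows of AKR7A2 held it at 3 places. The AP-1 site TGANTCA, in 7.71% of all windows, and the ATF4 composite element TGATGNAA, in 3.62%, were in no member's window. The GC box GGGCGG was in the windows of AKR1A1, AKR1B1 and AKR7A2 and in 45.0% of all windows. The TATA box TATAAA was in 11.5% of all windows and, among the members, in the upstream AKR1C3 window alone. There it read TTTATA, so it lay on the strand opposite to the gene, and no member's window held TATAAA on the gene's own strand. All motifs here were counted on either strand. Matches of this kind describe letters and not bound sites. The windows reach 250 bases before the start, so motifs farther from it were not searched.

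The members outside the AKR1C cluster showed smaller differences. AKR1B1, aldose reductase, reduces glucose to sorbitol and detoxifies lipid aldehydes. It had 989 parental and 702 RT-R counts, or 106.9 (100.3 to 113.7) and 70.1 (65.0 to 75.5) CPM. It was 1.57-fold lower in RT-R (1.43 to 1.73), short of the 2-fold rule, with a log2 ratio of -0.65. AKR7A2 was the most abundant member in both libraries, with 1145 and 1151 counts, or 123.7 (116.7 to 131.1) and 114.9 (108.4 to 121.8) CPM. Its ratio was 0.901 (0.830 to 0.979), a log2 ratio of -0.15 that is smaller in size than the median absolute value of 0.34. AKR1A1, which reduces glucuronate and many other aldehydes, had 150 and 200 counts, or 16.2 (13.7 to 19.0) and 19.97 (17.3 to 22.9) CPM, and its ratio of 1.20 (0.963 to 1.49) did not exclude equal expression.

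AKR1B10, which reduces retinal and aliphatic aldehydes, had 0 counts in both libraries. A count of 0 allows up to 3 counts, or 0.324 CPM for the parental library and 0.2996 CPM for RT-R. No difference in AKR1B10 could be seen at this depth, so it has no ratio. Its close relative AKR1B15 also had 0 counts in both.

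On the CPM scale, with no division by transcript length because a 3' tag kit reads 1 end per transcript, the order of levels was AKR7A2, AKR1B1, AKR1A1, AKR1C3, then AKR1C1 and AKR1C2 in both libraries. The counting intervals of AKR1C1 and AKR1C2 overlapped in each library. In the parental library the interval of AKR1C3 was clear of both, and that of AKR1A1 lay above it. In the RT-R library AKR1A1 (17.3 to 22.9) and AKR1C3 (11.8 to 16.5) came closer, with intervals that still did not overlap. The 7 members together took 2312 parental and 2251 RT-R counts, a ratio of 0.873 (0.823 to 0.926), since AKR1B1 and AKR7A2 outnumbered the AKR1C genes.

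Chromosomal position was described from RefSeq gene order, with up to 15 measured genes on each side of a member. Around the AKR1C cluster, 0 of 26 measured neighbours were called higher and 1 lower, and their median log2 ratio was -0.17. The neighbours' log2 ratios ran from -1.43 to 0.54, below the AKR1C values of 2.49 to 3.42. The nearest measured gene on one side, the noncoding gene LINC00704, went from 357 to 147 counts and fell 2.71-fold (2.23 to 3.31). On the other side NET1, an exchange factor for RHOA, had 1765 and 1764 counts, a ratio of 0.896 (0.838 to 0.958).

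AKR1B1 lies on chromosome 7 among genes that were also lower. Of its 30 measured neighbours 6 were called lower and 0 higher, with a median log2 ratio of -0.46, and the 601 measured genes of chromosome 7 had a median of -0.35. The nearest neighbours were SLC35B4, a nucleotide sugar transporter, 1.86-fold lower (1.65 to 2.10), and BPGM, bisphosphoglycerate mutase, which fell 2.23-fold (1.64 to 3.06) from 128 to 64 counts. With the median of the neighbours subtracted, the log2 ratio of AKR1B1 was -0.19 in place of -0.65. What the chromosome contributes to the AKR1B1 value was not tested. Around AKR7A2 and AKR1A1 on chromosome 1, the neighbours' medians were 0.16 and -0.09. PRDX1, the peroxidase gene next to AKR1A1, had 6786 and 6843 counts, a ratio of 0.904 (0.874 to 0.935).

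**Figure D4:**
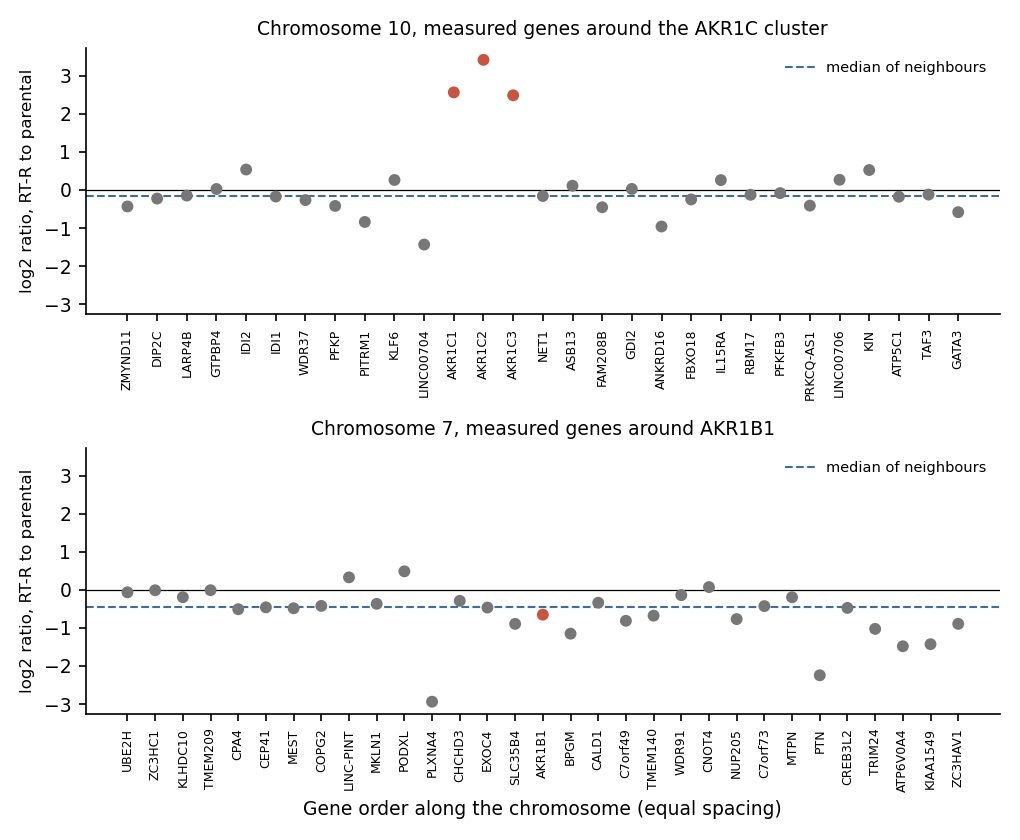
Log2 ratio of RT-R to parental (vertical axis) for measured genes in their order along chromosome 10 around the AKR1C cluster (top) and chromosome 7 around AKR1B1 (bottom), members in red, dashed line at the neighbours' median. The AKR1C genes stand above all 26 neighbours drawn, and AKR1B1 at -0.65 lies near its neighbours' median of -0.46.

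Of 13 other genes of the superfamily on a fixed list, 12 were in the tables, 9 had a count and 4 were measured. KCNAB2, a beta subunit of voltage-gated potassium channels with an aldo-keto reductase fold, rose from 47 to 173 counts, 3.30-fold (2.38 to 4.66). Its relatives KCNAB1, with 32 and 67 counts, and KCNAB3, with 30 and 42, had ratios of 1.88 (1.22 to 2.96) and 1.26 (0.767 to 2.08) and were not called. AKR7L, a pseudogene copy beside AKR7A2, had 26 and 30 counts, a ratio of 1.03 (0.591 to 1.82). AKR7A3 had 3 and 1, AKR7A2P1 1 and 5, AKR1E2 5 and 3, AKR1C4 0 and 1 and AKR1D1 0 and 1. AKR7A2 shared 10.2% of its 50-base coding stretches with AKR7A3 and AKR7L, and the AKR7A genes summed went from 1175 to 1187 counts, a ratio of 0.906 (0.835 to 0.983).

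The regulators and targets of NRF2 were compared next, because AKR1C genes are among its known targets. NFE2L2, the gene of NRF2 itself, had 415 and 533 counts, a ratio of 1.15 (1.01 to 1.31), and KEAP1, which directs NRF2 to degradation, was 1.15-fold lower (1.05 to 1.26). Of 13 measured regulators 1 was called higher and 0 lower, with a median log2 ratio of 0.23, against -0.01 over all measured genes. The one called was SQSTM1, the autophagy receptor that competes for KEAP1, which went from 2877 to 6758 counts, 2.11-fold (2.016 to 2.201). The lowest was the small Maf gene MAFK, 1.31-fold lower (1.16 to 1.49).

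Of 28 measured NRF2 targets from a list that leaves out the members, 3 were called higher and 0 lower, where all measured genes had 6.89% higher and 3.97% lower. The targets' median log2 ratio was -0.08. The 3 were SLC7A11, the cystine transporter, at 4.09-fold (3.69 to 4.55), FTH1, the ferritin heavy chain, at 3.05-fold (2.96 to 3.15), and PANX2, a pannexin channel, at 2.56-fold (1.91 to 3.47). The quinone reductase NQO1 had a ratio of 1.44 (1.34 to 1.54), and the heme oxygenase HMOX1 0.951 (0.805 to 1.12). GCLC and GCLM, the subunits of the rate-limiting enzyme of glutathione synthesis, were 1.62-fold (1.23 to 2.15) and 1.25-fold (1.14 to 1.38) lower. The lowest was CBR1, a carbonyl reductase, 1.66-fold lower (1.499 to 1.835). NQO1, HMOX1, GCLC and GCLM were chosen for naming after their values were seen.

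Enzymes that share substrates with the members were counted in the same way. Among 21 measured carbonyl reductases outside the superfamily, 2 were called higher and 0 lower, with a median log2 ratio of 0.05. They were DHRS2, at 2.45-fold (1.86 to 3.26), and DHRS3, a retinal reductase, at 2.435-fold (1.88 to 3.18), while DHRS4 was 1.97-fold lower (1.61 to 2.41). Among 12 measured aldehyde dehydrogenases, which oxidise aldehydes where the members reduce them, 2 were called higher and 0 lower, with a median of -0.04. ALDH5A1, which oxidises succinic semialdehyde, the substrate that AKR7A2 reduces, rose from 11 to 38 counts, 3.10-fold (1.55 to 6.72), and ALDH1A3, which makes retinoic acid, rose 2.38-fold (1.98 to 2.87). ALDH2 had the lowest value, 1.37-fold lower (1.21 to 1.56).

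Prostaglandin genes encode the enzymes and receptors around the prostaglandin step of AKR1C3. Of 11 measured, 2 were called higher and 1 lower, with a median log2 ratio of -0.01. PTGS2, the inducible cyclooxygenase, rose from 41 to 351 counts, 7.68-fold (5.54 to 10.9). PTGFR, the receptor for F-series prostaglandins, rose from 6 to 20 counts, 2.99-fold (1.16 to 9.10). TBXAS1, the thromboxane synthase, fell from 152 to 30 counts, 5.65-fold (3.801 to 8.662).

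Of 20 measured genes of steroid and retinoid metabolism, 4 were called higher and 3 lower, with a median log2 ratio of 0.08. Among the higher genes, LRAT, which esterifies retinol, rose 3.51-fold (1.83 to 7.27) from 12 to 47 counts, CYP26B1, which breaks down retinoic acid, rose 2.22-fold (1.277 to 4.002), and DHRS3 is given above. The retinoic acid carrier CRABP2 fell 3.28-fold (2.22 to 4.96). The other 2 lower genes were HSD3B7, an enzyme of bile acid synthesis, at 2.48-fold (1.97 to 3.14), and STS, the steroid sulfatase, on the X chromosome, at 2.32-fold (1.85 to 2.91). The 424 measured X-linked genes had a median log2 ratio of -0.78, and its part in the STS value was not tested.

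Of 13 measured genes of sugar, glucuronate and succinic semialdehyde metabolism, 1 was called higher and 1 lower, with a median log2 ratio of -0.12. ALDH5A1, given above, was the higher one, and KHK, which phosphorylates fructose, fell from 40 to 20 counts, 2.23-fold (1.27 to 4.03). SORD, which turns the sorbitol made by AKR1B1 into fructose, had a ratio of 1.29 (1.16 to 1.44) and was chosen for naming after its value was seen. Across these 8 lists, the shares of genes called are to be read against 6.89% higher and 3.97% lower over all measured genes.

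**Figure D5:**
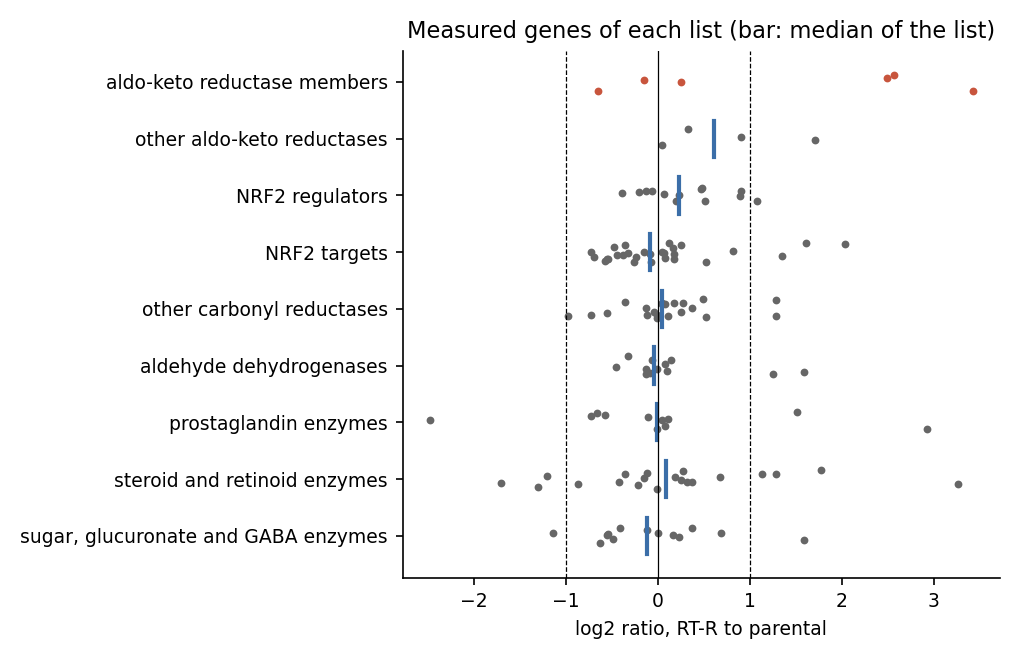
Log2 ratio of RT-R to parental for each measured gene of the members (red) and of 8 related gene lists (grey), with blue bars at the medians of those 8 lists and dashed lines at 2-fold. The medians of the lists other than the 4 remaining superfamily genes lie between -0.12 and 0.23.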

How the data were processed

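One library of MDA-MB-231 and 1 of RT-R-MDA-MB-231 were compared, grouped by the cell line named in the labels. Each file deposited by the authors gives unnormalized counts, as whole numbers, by gene symbol. Libraries were made with a Lexogen 3' tag kit, per the labels' protocols, and bcl2fastq 2.20.0.422, Bowtie2, bedtools and hg19 are named in the submitters' processing notes. For annotation, strand and multi-mapping rules: not given in the sources used here. Rows with the same symbol were summed, and no member had a repeated row. Size factors came from edgeR 4.0.16, used for scaling alone, which put the RT-R to parental ratio of effective sizes at 1.115. Log2 ratios used scaled counts plus 0.5. Ratios carry exact conditional (Clopper-Pearson) 95% intervals from scipy 1.17.1. With 1 library per line a quasi-likelihood test has no residual degrees of freedom. Calls were tested on simulated data that held counting error alone, so the spread between replicates was not covered. The genes changed in that simulation had higher mean counts than AKR1C1 and AKR1C2. Depth was 9255008 and 10014804 counts.

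The members and gene lists were chosen with earlier results of these data known. Named genes were all members, every detected gene of the superfamily list, the highest and lowest measured gene of each other list, the genes nearest the member with the largest ratio, and each member's nearest measured neighbours. Called genes of a list were named as well. Some genes that these rules select are not reported here. Gene order (98.6% of measured genes placed) and promoters came from RefSeq GRCh38.p14, transcripts from GENCODE release 29, aligned with Biopython 1.88. Features were counted on another build (hg19), so their coordinates are left out. Alternatives were 3 other scalings (one from DESeq2 1.42.0), other pseudocounts, count minimums and fold thresholds, fold alone, subtraction of neighbours and other AKR1C sums.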

Additional observations from a re-analysis of the deposited data

How the results depend on the processing

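AKR1C1, AKR1C2 and AKR1C3 were the members called higher under each of the 3 other scalings, a count minimum of 0, thresholds of 1.5-fold and 4-fold, fold alone and a pseudocount of 5, the last an alternative for the calls chosen after seeing the data. With a count minimum of 100, 1 member, AKR1C3, was called higher, since the other copies had 29 counts at most, and the measured genes called were 356 higher and 265 lower. A threshold of 1.5-fold called 1 member lower, AKR1B1, with 1734 measured genes higher and 1501 lower, and a threshold of 4-fold called 292 higher and 67 lower. Scaling by total counts called 934 measured genes higher and 442 lower, by the median of ratios 881 and 492, and by the upper quartile 929 and 445. A count minimum of 0 called 1178 and 657, fold alone called 884 and 506, and 767 and 423 were called with a pseudocount of 5. These counts are out of 12644 measured genes, except at count minimums of 0 and 100, which change the number measured. Of 30 member log2 ratios recomputed, 28 stayed inside the counting interval, which is wide for AKR1C1 and AKR1C2: a pseudocount of 5 moved them to 1.82 and 2.19. The other 2 followed subtraction of chromosomal neighbours, which gave -0.19 for AKR1B1 and -0.31 for AKR7A2. No called member changed sign. The other scalings shifted log2 ratios by at most 0.04.

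Depth limits AKR1B10, AKR1C1 and AKR1C2 most, with 0 to 4 parental counts. Leaving out a replicate was not run, since each line had 1 library. No paired analysis was possible because each line had 1 library.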

Other observations

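At a pseudocount of 0.5 the member with the largest ratio was AKR1C2, with 2 parental counts. With a pseudocount of 5, AKR1C3 (log2 ratio 2.28) was above AKR1C2 (2.19). Over the 2 libraries, measured genes near to it in the plane of log2 CPM included FLT1, a receptor for vascular endothelial growth factor, with 2 and 26 counts at a distance of 0.155, and OLFML3, a secreted olfactomedin-domain protein, with 2 and 33 counts at a distance of 0.183. In all, 21 measured genes lay within 0.5 of AKR1C2 in that plane, and a pattern over 2 values is shared by many low genes.

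Among 14 markers of other cell types, 8 had 0 counts in the parental library and 6 in the RT-R library, and the measured ones summed to 1157 and 910 counts. PTPRC and CD3E of blood cells, DCN and PDGFRA of fibroblasts and TTR of hepatocytes had none in either. Others of the list were present: CD68, a macrophage marker, had 346 and 452 counts, COL1A1, a fibroblast collagen, 59 and 76, APOA1 of hepatocytes 12 and 3, and LUM of fibroblasts 0 and 2. PECAM1, an endothelial adhesion gene, fell from 223 to 50 counts, 4.97-fold (3.65 to 6.90), while CDH5 had 0 and 1 and VWF 1 and 1. ALB, the serum albumin gene, had 529 and 332 counts, 1.78-fold lower (1.55 to 2.04). These genes were named after their values were seen.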
